A study of Mus musculus with 2 samples.

Results

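Stromal cells given the working name adipogenic-leaning were described here among cultured mouse bone marrow stromal cells (BMSCs), the fraction of flushed marrow that sticks to plastic. They were picked by a rule on unique molecular identifiers (UMIs, each standing for 1 captured mRNA molecule). A barcode needed at least 20000 UMIs, at most 15% of them mitochondrial, and at least 60 UMIs per 10000 of Col1a1, Col1a2 and Sparc together. It also needed fewer than 20 per 10000 of 8 macrophage genes, fewer than 5 of 8 cell-cycle genes and fewer than 1 of Ibsp, a bone matrix gene. The last condition was a sum of at least 3 UMIs per 10000 over Cxcl14, Hp, Pparg and Lpl. The rule found 447 cells among 15265 barcodes, 186 of 6140 in the cKO library and 261 of 9125 in the WT library. The cells that met the depth, stroma, macrophage and cycling limits but failed the Ibsp limit, the sum or both are called other stroma below, and numbered 593 in cKO and 872 in WT.

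The cKO library came from Prrx1-Cre+/-; Slc31a1flox/flox mice and the WT library from their Slc31a1flox/flox littermates without the Cre, all on a C57BL/6J background, so both carried the floxed copper importer gene. Prrx1-Cre is active in limb mesenchyme, and blood-derived cells in the culture are not its target. Femur and tibia marrow was cultured in serum-supplemented alpha-MEM, loose cells were washed off after 48 h, and no osteogenic medium or drug was added, per the labels. Age, sex and the number of mice per library were not given. Each genotype is 1 library, so no difference below has a replicate check or a p-value.

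PPARG is the nuclear receptor that drives fat cell formation, with the C/EBP proteins as partners, and marrow stromal progenitors can take a fat or a bone course. In marrow, the stromal cells that make CXCL12 and KIT ligand, the niche factors for blood stem cells, also express adipogenic genes at low levels. CXCL14 is a chemokine, haptoglobin (Hp) binds free haemoglobin, and lipoprotein lipase (Lpl) releases fatty acids from circulating lipoproteins.

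Promoter sequences are shown for Cxcl14 and Pparg because one of these 2 genes was the highest of the sum in most of the cells picked. They are from RefSeq (GRCm38.p6), 250 bases before to 50 after a start site, 5′ to 3′ on the gene's strand. Capitals mark AGGTCA, the half-site that PPARG and other nuclear receptors bind, and TTGCNNAA, a C/EBP-type site, each on either strand. AGGTCA was present in 16.3% of 32851 promoter windows of this length and TTGCNNAA in 10.8%.
Cxcl14, chr13:56296502-56296801, minus strand: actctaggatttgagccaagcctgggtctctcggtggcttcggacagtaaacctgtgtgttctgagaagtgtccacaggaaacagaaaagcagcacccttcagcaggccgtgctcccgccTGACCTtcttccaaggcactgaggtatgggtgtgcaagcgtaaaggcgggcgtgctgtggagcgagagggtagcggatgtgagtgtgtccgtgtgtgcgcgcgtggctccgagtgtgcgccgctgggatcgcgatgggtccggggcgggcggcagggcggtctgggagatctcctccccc
Pparg, start 1, chr6:115360894-115361193, plus strand: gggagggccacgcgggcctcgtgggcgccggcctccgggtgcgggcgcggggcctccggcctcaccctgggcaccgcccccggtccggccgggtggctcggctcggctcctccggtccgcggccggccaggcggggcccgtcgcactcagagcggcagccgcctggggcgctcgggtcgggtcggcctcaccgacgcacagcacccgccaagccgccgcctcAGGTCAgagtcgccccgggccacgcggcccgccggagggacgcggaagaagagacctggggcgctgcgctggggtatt
Pparg, start 3, chr6:115421816-115422115, plus strand: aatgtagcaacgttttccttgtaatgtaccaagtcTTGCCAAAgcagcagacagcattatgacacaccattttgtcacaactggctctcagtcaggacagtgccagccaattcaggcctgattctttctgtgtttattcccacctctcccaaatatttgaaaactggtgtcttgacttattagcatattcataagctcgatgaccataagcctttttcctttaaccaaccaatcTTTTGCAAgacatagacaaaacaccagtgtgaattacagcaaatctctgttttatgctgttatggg
RefSeq gives 3 Pparg starts; the window of start 2, chr6:115362099-115362398, is not printed and held 1 AGGTCA. The windows of Cxcl14 and of Pparg start 1 held 1 AGGTCA each, and that of Pparg start 3 held 2 TTGCNNAA matches and no AGGTCA. A match is a description of letters only, and counts taken near the 3′ end of mRNA do not say which Pparg start was used. In GRCm38 the Pparg gene (ENSMUSG00000000440) spans chr6:115360951-115490399 (plus strand) and Cxcl14 (ENSMUSG00000021508) spans chr13:56288643-56296551 (minus strand). Hp (ENSMUSG00000031722) spans chr8:109575128-109579172 (minus strand) and Lpl (ENSMUSG00000015568) chr8:68880491-68907448 (plus strand).

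The cKO library held 126031142 UMIs and the WT library 152398639. The cells picked were deep, with medians of 57591 UMIs in cKO and 47791 in WT, against 67700 and 50585.5 in other stroma. Their mitochondrial shares had medians of 3.9% in cKO and 3.41% in WT. Both libraries shared 11 barcode sequences, and 1 picked cell in each library had such a barcode. Levels below are in CPM, 10000 of which equal 1%, computed from UMIs summed over the cells of 1 class and library, and intervals are 95% and cover counting error only.

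The cells made up 23.9% of deep non-cycling stroma in cKO (20.9 to 27; 186 of 779) and 23% in WT (20.6 to 25.6; 261 of 1133), and the intervals overlapped. Of all deep stroma, cycling cells included, they were 15.3% in cKO and 14.8% in WT. With each cell thinned to 20000 UMIs before the rule was applied, the shares were 24.7% in cKO and 25.6% in WT, and 167 of the 186 cKO cells and 231 of the 261 WT cells stayed in. The threshold lay on a slope without a gap. The sums nearest above it were 3.0077 in cKO and 3.0083 in WT and the nearest below 2.9842 and 2.9918. Between 2 and 3 per 10000 lay 66 cKO and 137 WT cells, and between 3 and 4 lay 35 and 70. The median sum was 6.29 per 10000 in cKO and 5.32 in WT.

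The 4 genes of the sum were the basis of the choice, so their values are a description. Pparg stood at 358 CPM in the picked cells of cKO and 47.5 CPM in other cKO stroma, and at 266 CPM and 50 CPM in WT. Cxcl14 had 236 CPM in the picked cells and 18.6 CPM in other stroma of cKO, and 181 CPM and 20.5 CPM in WT. In cKO a single cell gave 23.1% of the Cxcl14 UMIs, and without it the level was 185 CPM. Hp was at 67.6 CPM in the picked cells and 12.8 CPM in other stroma of cKO, and at 128 CPM and 27.1 CPM in WT. Lpl was at 89.5 CPM against 21.7 CPM in cKO, and at 88.7 CPM against 31 CPM in WT. Of these genes, Lpl was higher in deep macrophages (728 CPM in cKO and 601 CPM in WT) and Hp in neutrophils (251 CPM and 218 CPM) than in the picked cells of either library. Deep cycling stroma lay between the picked cells and other stroma for all 4, for instance with 125 CPM of Pparg in cKO and 115 CPM in WT.

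The picked cells differed in which gene of the sum was highest. Pparg was the highest of the 4 genes in 107 of 186 cKO cells, 57.5% (50.1 to 64.7), and in 126 of 261 WT cells, 48.3% (42.1 to 54.5). Cxcl14 was highest in 47 cKO cells (25.3%) and 60 WT cells (23%), Lpl in 17 and 28 cells. Hp led 15 cKO cells, 8.06% (4.58 to 13), and 47 WT cells, 18% (13.5 to 23.2), the only one of the 4 shares whose intervals did not overlap. Picked cells with at least 3 per 10000 of both Cxcl14 and Pparg numbered 6 in cKO and 3 in WT. Pparg alone reached 3 in 84 cKO and 81 WT cells and Cxcl14 in 37 and 47, these cells included. The choice of cells by the sum partly sets these counts. Across all deep non-cycling stroma, where the sum did not choose the cells, Cxcl14 and Pparg per 10000 had a Spearman correlation of 0.30 over 779 cKO cells and 0.16 over 1133 WT cells. These points share a library and differ in depth, and the values are a description.

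**Figure D1:**
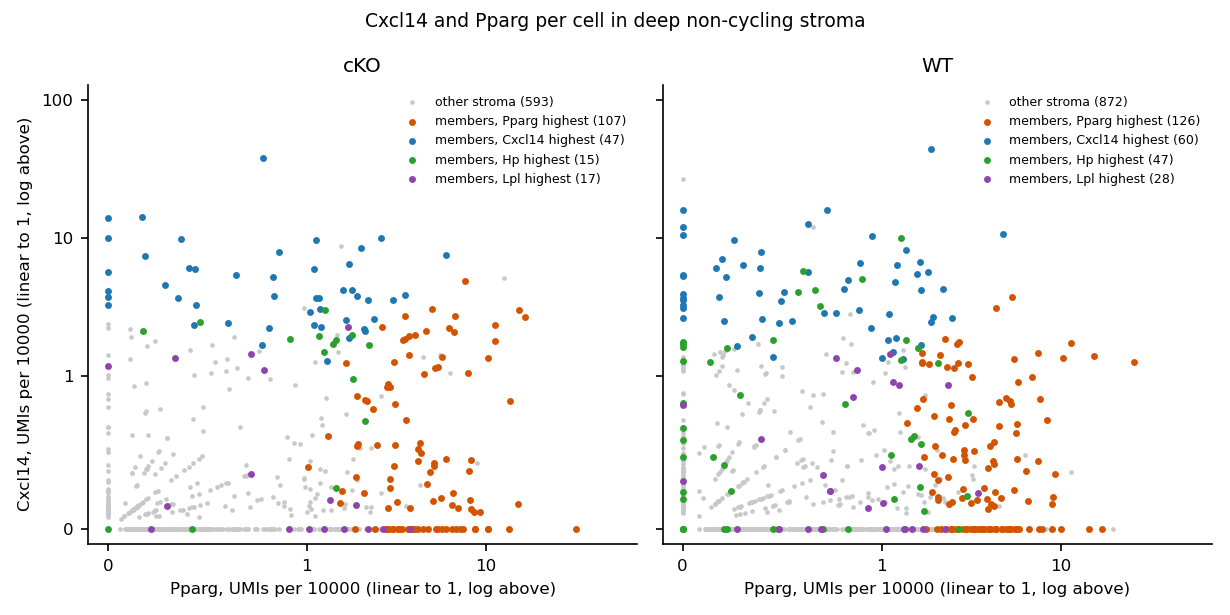
Cxcl14 (vertical) against Pparg (horizontal) in UMIs per 10000 for every deep non-cycling stromal cell, cKO left and WT right; both axes are linear to 1 and logarithmic above. Coloured points are the picked cells by their highest gene and grey points are other stroma, and cells high in both genes are few (6 in cKO and 3 in WT of the picked cells with at least 3 of each).

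Of the 7 genes given as markers of these cells, Pde3a, Mgp, Svep1 and Col4a1 did not enter the rule, and all 4 were at least 1.5-fold higher in the picked cells than in other stroma of both libraries. The cells and their markers were chosen with earlier results of these data known, so these levels are a description and no independent check. In cells picked by Cxcl14 alone, Mgp (-0.06 on the log2 scale) and Pde3a (-0.02) were no longer higher in cKO. Svep1, an extracellular matrix protein, had 323 CPM in the picked cells and 157 CPM in other stroma of cKO, a ratio of 2.05 (1.97 to 2.14), and 306 CPM and 179 CPM in WT, a ratio of 1.71 (1.65 to 1.78). Per cell it exceeded the median of other stroma in 85.5% of cKO and 79.3% of WT picked cells. Col4a1, a basement membrane collagen chain, had ratios of 1.83 in cKO and 1.53 in WT, and its partner chain Col4a2 1.95 and 1.54. Pde3a, a phosphodiesterase that degrades cyclic AMP, had 129 CPM against 54.2 CPM in cKO and 97 CPM against 49.8 CPM in WT. Mgp, an inhibitor of calcification, was the least even of the 4: one cKO cell gave 14.7% of its UMIs, and 61.3% of cKO and 55.9% of WT picked cells exceeded the median of other stroma.

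Over all genes, the picked cells differed from other stroma by at least 1.5-fold in the same direction in both libraries at 141 of 8610 genes with a mean of at least 10 CPM upward (1.64%) and at 72 downward (0.836%). In single libraries the shares were 3.01% upward and 1.5% downward in cKO and 2% and 1.15% in WT. The 24 genes of the rule were left out of these counts. The rule used this contrast, so the counts and the levels given for it below describe the cells chosen.

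**Figure D2:**
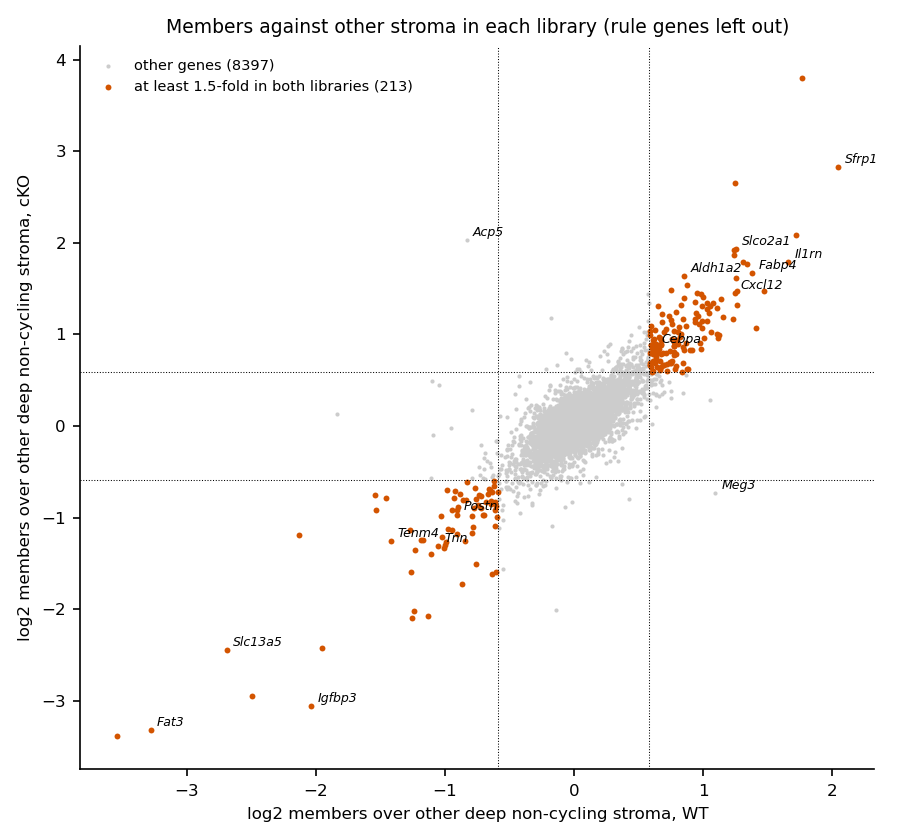
Each point is a gene with a mean of at least 10 CPM, rule genes left out; the vertical axis is the log2 ratio of picked cells (members) over other stroma in cKO and the horizontal axis the same in WT. Dotted lines mark 1.5-fold; 213 orange genes pass it in the same direction in both libraries, among them Sfrp1 (2.83 in cKO and 2.05 in WT) and Fat3 (-3.32 and -3.28).

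Fabp4, Cebpa, Ebf2 and Zfp423 were higher in the picked cells, while Adipoq, Plin1, Cidec and Lep had at most 7 UMIs each. The list of adipogenic regulators also holds Fabp4, which is counted again in the lipid and mature adipocyte lists below. Of its 18 genes measured besides the rule genes, 4 passed 1.5-fold upward in both libraries (Fabp4, Cebpa, Ebf2 and Zfp423) and 0 downward. The list medians were 0.60 on the log2 scale in cKO and 0.36 in WT against 0.03 and 0.02 for all genes. The shift was not particular to this list. Medians in cKO and WT were 0.67 and 0.70 for 8 fibroblast progenitor genes and 1.03 and 0.82 for 4 chondrocyte genes. For 4 pericyte and smooth muscle genes they were 0.61 and 0.48, while neutrophil and endothelial markers had medians below 0 in both libraries. Fabp4, a fatty acid carrier and PPARG target, had 238 CPM in the picked cells and 73.9 CPM in other stroma of cKO, a ratio of 3.22 (3.06 to 3.39). In WT it had 181 CPM and 68.7 CPM, a ratio of 2.63 (2.49 to 2.77). Per cell, 87.1% of cKO and 82% of WT picked cells exceeded the median of other stroma. Cebpa, the C/EBP factor that acts with PPARG, was at 18.8 CPM against 9.89 CPM in cKO and 14.5 CPM against 9.05 CPM in WT. In thinned counts, 25.8% (19.7 to 32.7) of cKO picked cells held a Cebpa UMI, against 18.9% (15.8 to 22.3) of other stroma. In WT the shares were 19.9% (15.3 to 25.3) and 15.9% (13.6 to 18.5), and the intervals overlapped in both libraries. Deep macrophages had higher shares, 64.2% in cKO and 58.2% in WT, and their part in the Cebpa result was not tested. Ebf2 and Zfp423, factors of fat cell precursors, had ratios of 3.12 and 2.02 in cKO and 1.89 and 2.09 in WT, and Ebf2 was lower in WT cells picked by Cxcl14 alone (-0.28 on the log2 scale). The early factors Cebpb and Cebpd had ratios of 1.04 and 1.10 in cKO and 0.866 and 1.00 in WT.

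The 10 mature adipocyte markers summed to 258 CPM in the picked cells and 78.2 CPM in other stroma of cKO, and to 190 CPM and 71 CPM in WT, most of it Fabp4. Cidec and Lep had 0 UMIs in the picked cells of both libraries, which allows up to 0.259 CPM in cKO and 0.232 CPM in WT (3 UMIs of the class total). Adipoq, the adipokine gene, had 7 UMIs in cKO and 5 in WT, of which 1 cell held 5 in each library. Plin1, which coats the lipid droplets of mature fat cells, had 0 UMIs in cKO and 1 in WT. Plin4, another droplet coat gene, was low and uneven at 19.2 CPM against 3.33 CPM in cKO and 9.05 CPM against 1.69 CPM in WT. Of 21 lipid uptake, synthesis and storage genes besides Lpl, Fabp4 passed upward in both libraries and Mgll, which splits monoglycerides, downward, and the list medians were 0.22 in cKO and 0.03 in WT. Plin2, the droplet coat of most cell types, had ratios of 1.00 in cKO and 1.02 in WT, and Scd1, a fatty acid desaturase, 1.23 and 1.24. Of all genes, 58.9% had a ratio above 1 in cKO and 54.8% in WT. Among genes of cholesterol synthesis 16 of 16 had a ratio above 1 in cKO and 14 of 16 in WT, none past 1.5-fold in both, with list medians of 0.49 and 0.27. Idi1, an enzyme of the isoprenoid steps, had 70.5 CPM against 43.3 CPM in cKO and 59.1 CPM against 40.8 CPM in WT.

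**Figure D3:**
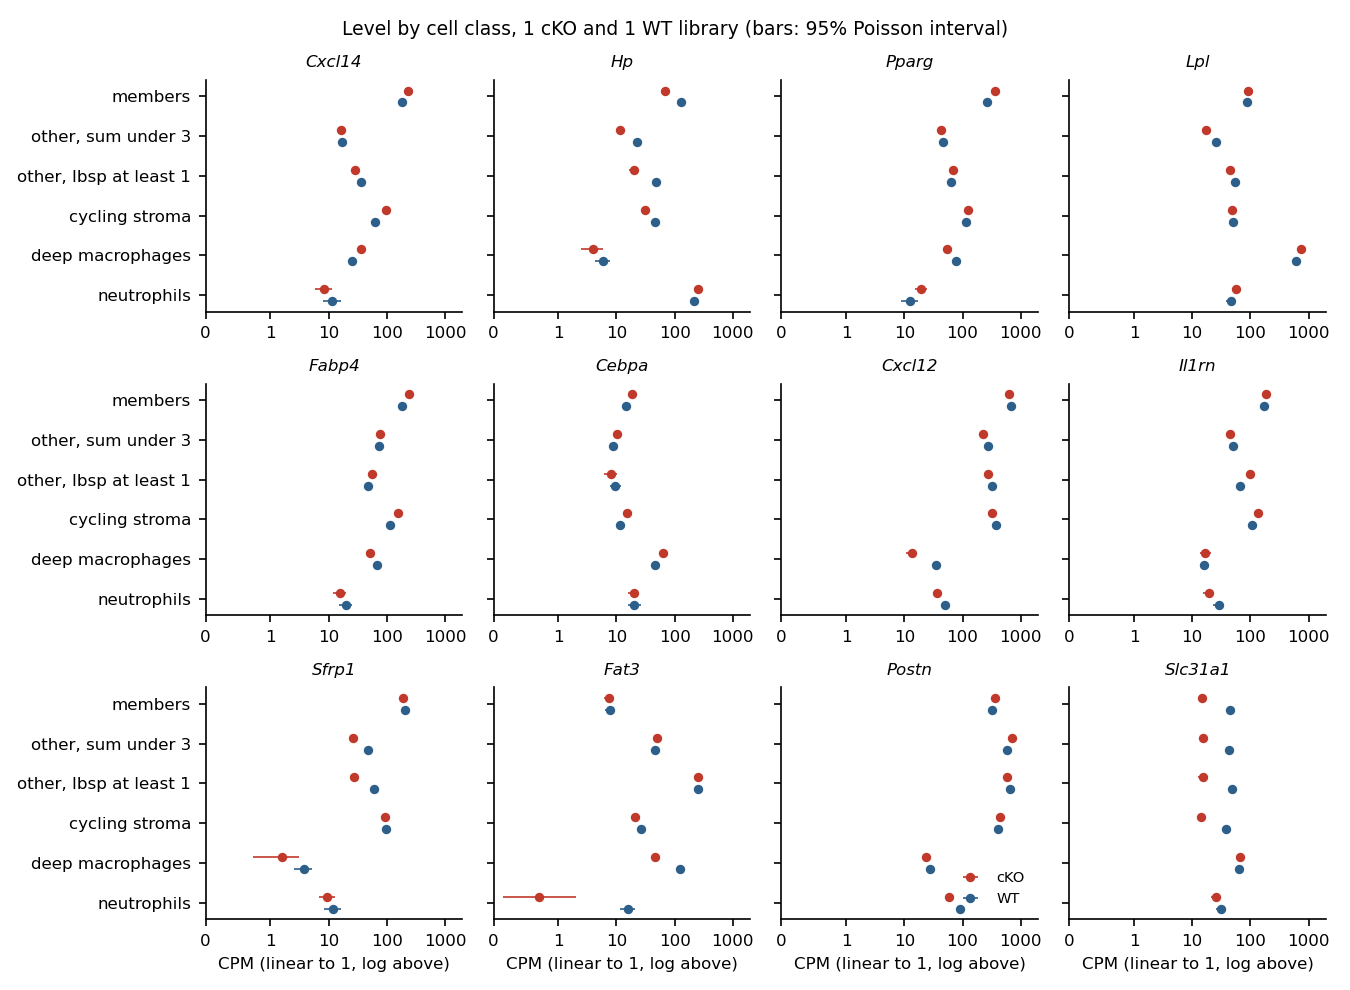
CPM of 12 genes (linear to 1, logarithmic above) in 6 cell classes, cKO in red above WT in blue, with 95% Poisson intervals. The picked cells (members) have the highest Pparg, Fabp4, Cxcl12, Il1rn and Sfrp1 of the classes shown, Lpl is highest in deep macrophages and Hp in neutrophils, and Slc31a1 is lower in cKO in the 4 stromal classes.

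Cxcl12 and 4 other genes of marrow niche stroma were higher in the picked cells, and Lepr, the receptor that marks many such cells in marrow, was lower. Of 18 measured genes of CXCL12-abundant and LEPR-positive stroma, 5 passed 1.5-fold upward in both libraries and 0 downward (medians 0.60 in cKO and 0.50 in WT). Ratios lay above 1 in both libraries for 14 of them and below 1 in both for 3. Igfbp5 was among the lower, at 0.619 (0.589 to 0.65) in cKO and 0.709 (0.686 to 0.732) in WT, as was Grem1 at 0.583 and 0.732. In single libraries Igfbp5 and Grem1 passed 1.5-fold downward in cKO and Esm1 in WT. Cxcl12 had 634 CPM in the picked cells and 230 CPM in other stroma of cKO, a ratio of 2.75 (2.67 to 2.84), and 681 CPM and 287 CPM in WT, a ratio of 2.37 (2.31 to 2.44). Angpt1, Pdgfra, Bmp4 and Serping1 were the other 4, with ratios between 1.67 and 2.45 in cKO and between 1.55 and 2.23 in WT. Kitl, the KIT ligand gene, had ratios of 1.43 (1.29 to 1.60) in cKO and 1.61 (1.49 to 1.75) in WT. Lepr was at 5.18 CPM against 11.5 CPM in cKO and at 5.18 CPM against 8.02 CPM in WT. Its mean of 7.48 CPM was under the 10 CPM floor, so it is not among the 18 measured genes. In thinned counts, 7.53% (4.18 to 12.3) of cKO picked cells held a Lepr UMI, against 16.2% (13.3 to 19.4) of other stroma. In WT the shares were 8.43% (5.36 to 12.5) and 12.4% (10.3 to 14.8), with overlapping intervals.

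Sfrp1, a secreted WNT antagonist, ranked first among genes of at least 50 CPM outside the rule: 193 CPM in the picked cells and 26.3 CPM in other stroma of cKO, a ratio of 7.33 (6.82 to 7.89), and 210 CPM and 50 CPM in WT, a ratio of 4.2 (3.97 to 4.44). Its relatives Sfrp2 and Sfrp4 had ratios of 2.70 and 1.90 in cKO and 1.82 and 1.86 in WT. Rspo2, which enhances WNT signalling, was also higher, at 568 CPM against 251 CPM in cKO and 836 CPM against 465 CPM in WT. Il1rn, the interleukin-1 receptor antagonist, had 188 CPM against 53.8 CPM in cKO and 170 CPM against 53.3 CPM in WT. Tnfrsf11b, the decoy receptor that binds RANKL, was at 90.4 CPM against 44.6 CPM in cKO and 87.4 CPM against 40.1 CPM in WT. Slco2a1, a prostaglandin transporter, had ratios of 3.90 in cKO and 2.42 in WT, and Slc6a6, the taurine transporter, 2.29 and 2.24. Aldh1a2, which makes retinoic acid, had ratios of 3.19 in cKO and 1.82 in WT. Aoc3, a copper-containing amine oxidase known from fat cells, had 34.2 CPM against 8.28 CPM in cKO and 27.5 CPM against 11.1 CPM in WT, and Loxl3, a copper-dependent crosslinking enzyme, had ratios of 1.85 and 1.72.

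Some genes of the bone lineage were lower, and the rule itself limited Ibsp. Of 14 measured osteoblast genes, 4 passed 1.5-fold downward in both libraries (Fat3, Slc13a5, Mef2c and Postn) and 1 upward (Bmp4), with medians of -0.18 in cKO and -0.28 in WT. Fat3, a large cadherin, had 7.52 CPM in the picked cells and 84.3 CPM in other stroma of cKO, and 7.89 CPM and 85.2 CPM in WT. Slc13a5, a citrate transporter, was at 5.36 CPM against 33.7 CPM in cKO and 4.02 CPM against 31.3 CPM in WT. Against the other stromal cells with at least 1 Ibsp UMI per 10000 alone, 444 of 8588 genes were higher in both libraries (5.17%) and 193 lower (2.25%), and against those with a low sum alone 111 of 8605 (1.29%) and 57 (0.662%). In the cells with at least 1 Ibsp UMI per 10000, Fat3 had 249 CPM in each library and Slc13a5 57.1 CPM in cKO and 71.5 CPM in WT. Against only the other stromal cells with less than 1 Ibsp UMI per 10000, all with a sum under 3, the osteoblast median was 0.12 in cKO and -0.19 in WT. Its direction in cKO thus rested on the cells with at least 1 Ibsp UMI per 10000. Postn, a periosteal matrix protein, was at 357 CPM against 698 CPM in cKO and 318 CPM against 595 CPM in WT, and 21% of cKO and 22.2% of WT picked cells exceeded the median of other stroma. The matrix genes Tnn and Col11a1 had ratios of 0.401 and 0.541 in cKO and 0.480 and 0.537 in WT. Spp1, a bone matrix gene also made by many other cells, went the other way, at 3237 CPM against 2527 CPM in cKO and 3146 CPM against 1755 CPM in WT. Against the cells with at least 1 Ibsp UMI per 10000 alone, its ratio was 0.802 (0.79 to 0.814) in cKO and 1.61 (1.58 to 1.64) in WT.

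**Figure D4:**
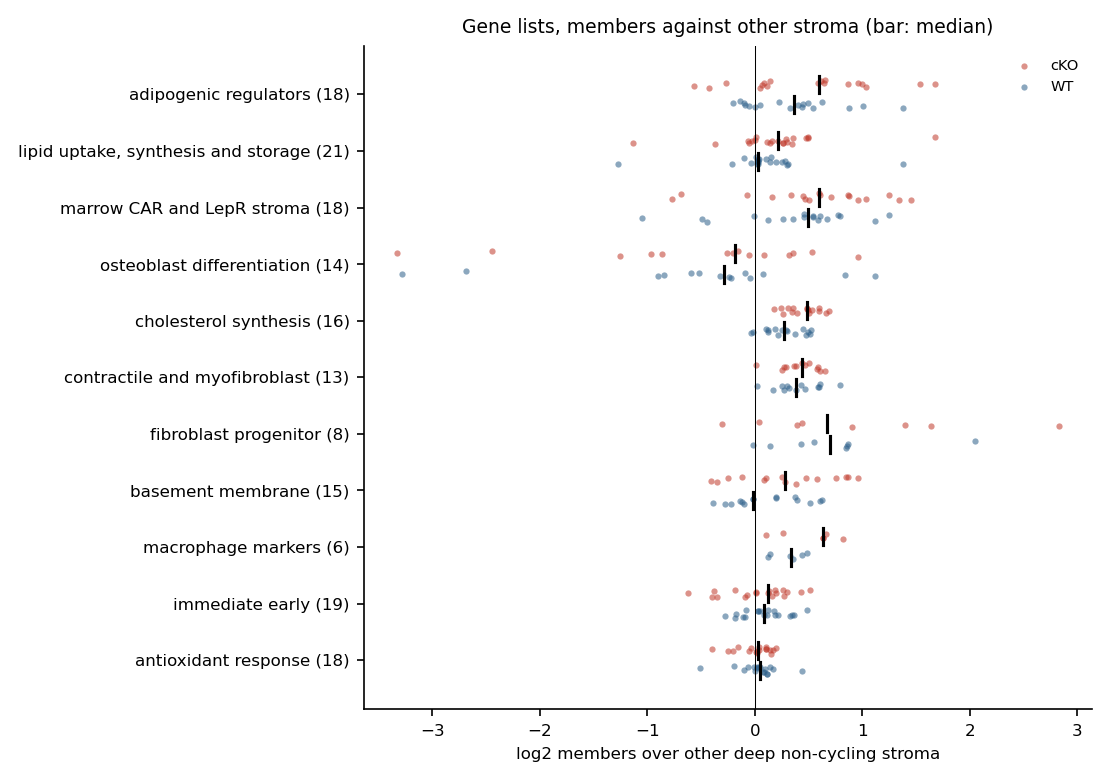
Log2 ratio of picked cells (members) over other stroma for the measured genes of 11 lists, cKO in red above WT in blue; each point is a gene, the black bar is the median, and the number of genes is in brackets. Medians are 0.60 in cKO and 0.36 in WT for adipogenic regulators and -0.18 and -0.28 for osteoblast genes.

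Of contractile genes, 13 of 13 had a ratio above 1 in both libraries, against 43.5% of all genes, and 2 passed 1.5-fold in both, with medians of 0.44 in cKO and 0.38 in WT. Tpm1, at 1.01 in both, lay within the 0.03 on the log2 scale by which other scalings moved the ratios. Col2a1, a cartilage collagen, had 331 CPM against 123 CPM in cKO and 218 CPM against 108 CPM in WT, with medians per cell of 0.205 per 10000 in cKO and 0.198 in WT, upper quartiles of 3.70 and 2.07 and highest cells of 44.6 and 32.5, and its direction in WT turned in cells picked by Cxcl14 alone (-0.46 on the log2 scale).

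RNA of other cell types differed between the picked cells and other stroma. Summed over 15 macrophage markers, the picked cells had 567 CPM and other stroma 428 CPM in cKO, and 866 CPM and 732 CPM in WT, against 18691 CPM and 19834 CPM in deep macrophages. None of the 15 was at 0. Cells led by Lpl had 1853 CPM in cKO and 2293 CPM in WT, above the 456 to 534 CPM and 661 to 804 CPM of cells led by the other 3 genes. The 7 neutrophil markers summed to 210 CPM in the picked cells and 353 CPM in other stroma of cKO, and to 177 CPM and 269 CPM in WT. The 7 endothelial markers summed to 58 CPM and 78.5 CPM in cKO and to 39.4 CPM and 114 CPM in WT, with 449 CPM in the 15 cKO cells led by Hp. The 9 pericyte and smooth muscle markers went the other way, with 317 CPM and 190 CPM in cKO and 307 CPM and 220 CPM in WT. Cells led by Lpl had 550 CPM of them in cKO and 739 CPM in WT. Of the 4 measured, 3 had ratios above 1 in both libraries and 0 below. Rgs5 had ratios of 7.48 (6.28 to 8.95) in cKO and 2.5 (2.18 to 2.86) in WT. The part of these cells in the results was not tested. With the macrophage limit lowered to 3 per 10000, 125 of the 141 genes called upward and 68 of the 72 called downward were still called.

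Cells led by Pparg and cells led by Cxcl14 were compared within each library, with genes chosen after their values were seen. Between them, 43 of 8583 genes were at least 1.5-fold higher in Pparg-led cells of both libraries (0.501%) and 68 lower (0.792%). Fabp4 was level, at 255 CPM in Pparg-led and 260 CPM in Cxcl14-led cells of cKO and at 170 CPM and 160 CPM in WT. Plin4 was higher in Pparg-led cells, at 23.3 CPM against 10.8 CPM in cKO and 9.66 CPM against 5.57 CPM in WT, and so was Prdm16, a brown fat factor, with ratios of 1.91 and 1.57. Prdm16 was the only call in both libraries among 18 adipogenic genes besides the rule genes, with 10 higher and 4 lower in both. Their medians were 0.15 in cKO and 0.07 in WT. Plin4 was the only one among 20 lipid genes, with 10 higher and 3 lower in both and medians of 0.06 and 0.08. Sfrp1 was lower in Pparg-led cells, at 121 CPM against 314 CPM in cKO and 116 CPM against 250 CPM in WT, as were Aldh1a2 with ratios of 0.298 and 0.511 and S100a4 with 0.362 in both libraries. Cxcl12 was at 544 CPM against 718 CPM in cKO and 591 CPM against 696 CPM in WT. Mgp went opposite ways, with 586 CPM in Pparg-led against 262 CPM in Cxcl14-led cells of cKO and 323 CPM against 569 CPM in WT.

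Between genotypes, Slc31a1, the targeted gene, was lower in the picked cells of the cKO library. It had 14.8 CPM in cKO (171 UMIs) and 44.2 CPM in WT (572 UMIs), a ratio of 0.334 (0.28 to 0.397), close to the 0.357 (0.326 to 0.39) of other stroma. Deep macrophages had 65.3 CPM in cKO and 63.8 CPM in WT. With every cell thinned to 20000 UMIs, 23.1% of cKO and 58.6% of WT picked cells held a Slc31a1 UMI (unthinned 47.8% and 86.6%), against 73.5% and 70.4% of deep macrophages. A class that should lack Slc31a1 was not found among these cells, which leaves the background of such shares unknown, and the labels do not name the deleted exons, outside which UMIs need not be lost. Prrx1 was at 444 CPM in cKO and 423 CPM in WT.

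At 1.5-fold, 66 of 8652 genes were higher in cKO than in WT in the picked cells (0.763%) and 52 were lower (0.601%). In other stroma 58 of 8602 were higher (0.674%) and 57 lower (0.663%). Over the genes measured in both classes, 28 of 62 genes called higher in the picked cells were also called higher in other stroma (45.2% of the one list and 50.9% of the other), and 24 of 53 called lower (45.3% and 38.1%).

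The genes of the sum did not move together between genotypes. Hp fell to 67.6 CPM in cKO, against 128 CPM in WT, a ratio of 0.528 (0.484 to 0.575), and it was lower in other stroma as well, at 0.473 (0.427 to 0.524). Lpl was level in the picked cells at 1.01 (0.927 to 1.10). Pparg had a ratio of 1.34 (1.28 to 1.41) in the picked cells and 0.951 (0.895 to 1.01) in other stroma. Cxcl14 had 1.31 (1.23 to 1.38) and 0.911 (0.827 to 1.00), and without the top cell of each library its levels were 185 CPM in cKO and 167 CPM in WT. The cells were chosen by the sum of these 4 genes in each library, so their levels in the picked cells are not independent of one another.

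Of 19 measured adipogenic regulators, 2 passed 1.5-fold upward in cKO (Cebpb and Nr2f2) and 0 downward, with 11 ratios above 1, 8 below and a median of 0.03. Of 22 lipid genes, Plin4 passed upward and Apoe downward, with a median of 0.06, beside 0.00 for all genes. Fabp4 and Plin4, the 2 measured mature adipocyte markers, both had ratios above 1. Cebpb, an early adipogenic and stress-response factor, rose past 1.5-fold to 119 CPM in cKO, against 74.8 CPM in WT, a ratio of 1.59 (1.46 to 1.72), and in other stroma the ratio was 1.32. Nr2f2, a nuclear receptor, had 45.2 CPM in cKO and 26.8 CPM in WT, a ratio of 1.68 (1.47 to 1.93). Fabp4 had a ratio of 1.32 (1.25 to 1.39), and Ebf1, Ebf2 and Zfp423 had ratios of 0.963, 0.978 and 0.885. Plin4 had a ratio of 2.12 (1.69 to 2.68) at low levels, 19.2 CPM in cKO and 9.05 CPM in WT, with a median cell at 0 in both. Fabp5 had 498 CPM in cKO and 645 CPM in WT.

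Igfbp5, Kitl, Serping1, Bmp4, Ogn and Mmp13 were lower in cKO. The list of CXCL12-abundant and LEPR-positive stroma was not lower as a whole. Of its 21 measured genes, 11 had ratios above 1 and 10 below, with a median of 0.02. Bmp4, Hp, Igfbp5, Kitl and Serping1 passed 1.5-fold downward and Esm1 upward. Of 12 measured inflammatory and acute-phase genes, 7 had ratios above 1 and 5 below, with a median of 0.15; Ptgs2 passed 1.5-fold upward and Hp downward. Igfbp5, an IGF-binding protein, fell to 162 CPM in cKO, against 334 CPM in WT, a ratio of 0.483 (0.458 to 0.51). Kitl fell to 41.7 CPM, against 68 CPM in WT, a ratio of 0.613 (0.548 to 0.686). Serping1, the inhibitor of complement C1, fell to 45.9 CPM in cKO, against 83.9 CPM in WT (ratio 0.547). Bmp4 fell to 19.4 CPM in cKO, against 43.6 CPM in WT, and 18.2% of its cKO UMIs came from 1 cell. Ogn, a small matrix proteoglycan, fell to 196 CPM in cKO, against 307 CPM in WT, and Mmp13, a collagenase, to 65.1 CPM, against 101 CPM in WT, with 14.3% of the cKO UMIs in 1 cell. Cxcl12 differed little, at 0.93 (0.902 to 0.959). All 6 of these lower genes had ratios under 0.7 in other stroma too. Apoe, at 145 CPM in cKO and 268 CPM in WT, fell beside the macrophage markers, a list that holds it: all 14 measured had ratios under 1, with a median of -0.54, and 4 passed 1.5-fold. Deep macrophages had 3303 CPM of Apoe in cKO and 4318 CPM in WT, and their part in the result was not tested.

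Higher in cKO were S100a4, Ptgs2 and 5 of 19 immediate early genes. S100a4, a calcium-binding protein of migrating cells, had 401 CPM in cKO and 178 CPM in WT, a ratio of 2.25 (2.14 to 2.36), and 2.31 in other stroma. Ptgs2, the inducible cyclooxygenase, had 87.2 CPM in cKO and 38.5 CPM in WT, a ratio of 2.27 (2.03 to 2.53), and 11.5% of the cKO UMIs came from 1 cell. Of 19 immediate early genes, 5 passed 1.5-fold upward and 1 downward, with a median of 0.30 in the picked cells and 0.33 in other stroma. Egr1 had 81 CPM in cKO and 45.2 CPM in WT. Id1, a target of BMP signalling, had 60.2 CPM in cKO and 28.5 CPM in WT, while Bmp4 itself was lower. Antioxidant response genes had ratios above 1 in 17 of 18 cases in both classes, against 50% of all genes in the picked cells and 44.1% in other stroma, with a median of 0.17 in each and 0 past 1.5-fold in the picked cells. Galnt13, a glycosyltransferase, had a ratio of 1.67 (1.52 to 1.83) in the picked cells and 1.00 (0.93 to 1.08) in other stroma. In cells picked by Cxcl14 alone its direction turned, to -0.17 on the log2 scale.

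**Figure D5:**
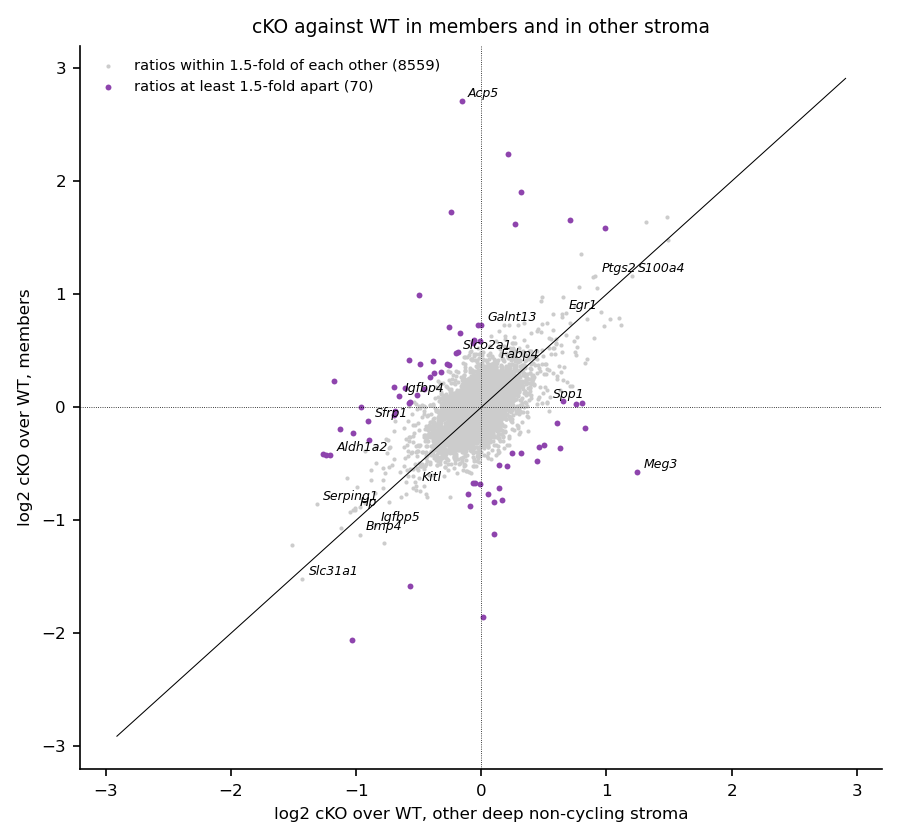
Each point is a gene with a mean of at least 10 CPM; the vertical axis is its log2 cKO over WT ratio in the picked cells (members) and the horizontal axis that in other stroma, with the line of equal ratios. The 70 purple genes have ratios at least 1.5-fold apart, among them Sfrp1, Aldh1a2 and Igfbp4 above the line.

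The cKO over WT ratio itself was compared between the picked cells and other stroma. The ratio of the 2 cKO over WT ratios passed 1.5-fold upward at 43 of 8629 genes (0.498%) and downward at 27 (0.313%). Sfrp1 was at 193 CPM in cKO and 210 CPM in WT in the picked cells (ratio 0.919), and at 26.3 CPM and 50 CPM in other stroma (ratio 0.526), a ratio of ratios of 1.75 (1.59 to 1.91). Igfbp4 was at 575 CPM in cKO and 536 CPM in WT in the picked cells and at 226 CPM and 357 CPM in other stroma, giving 1.70 (1.63 to 1.77). Aldh1a2 gave 1.75 (1.57 to 1.95), with ratios of 0.742 in the picked cells and 0.424 in other stroma, both below 1. Slco2a1 lay on opposite sides of 1, at 124 CPM in cKO and 88.4 CPM in WT in the picked cells (ratio 1.40) and at 31.7 CPM and 36.5 CPM in other stroma (ratio 0.868), giving 1.61 (1.45 to 1.79). In the other direction, Spp1 gave 0.715 (0.703 to 0.727), short of 1.5-fold, with ratios of 1.03 in the picked cells and 1.44 in other stroma. These values compare the same 2 libraries, and the intervals leave out differences between cells, mice and cultures.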

How the data were processed

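Both 10x Chromium 3′ v3 libraries, 1 per genotype and in the same sequencing batch per the labels, gave UMI counts per gene and barcode. The deposited counts were whole numbers, made with Cell Ranger 7.1.0 per the file headers, and mm10 and GRCm38 and Seurat are named in the submitters' processing notes. Counting options are not given in the sources used here.

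Counts were summed over the cells of each class and library and divided by the class total (CPM). A log2 ratio used a prior of 1 CPM; a gene was tested at a mean of at least 10 CPM and called at 1.5-fold. Intervals are exact conditional binomial for ratios, Poisson for levels and Clopper-Pearson for shares, and log-scale Poisson for ratios of ratios. With 1 library per group they cover counting error only, and no test between genotypes was possible. Genes were named, at a mean of at least 50 CPM, as the 15 highest and 15 lowest of each main contrast and 5 each way by ratio of ratios. Up to 4 per list and contrast were added at a mean of at least 10 CPM. All rule, marker, adipogenic and lipid genes were added at any level, with Slc31a1 and Prrx1. Loxl3, Aoc3, Idi1 and the genes of the comparison of Pparg-led and Cxcl14-led cells were chosen after their values were seen. So were genes outside this rule. The members and lists were chosen with earlier results of these data known.

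Doublets were kept: Scrublet's automatic threshold marked 1 cKO and 2 WT barcodes, too few to be a working call, and an alternative removed the highest scores at 0.8% per 1000 cells (11 cKO and 12 WT members). Annotation matched 32158 of 32285 gene IDs. The steps were tested on simulated counts. Tools were scanpy 1.11.5, scipy 1.17.1, numpy 2.4.6, pandas 2.3.3 and, for scaling factors, edgeR 4.0.16.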

Additional observations from a re-analysis of the deposited data

Results flagged for a closer look

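Acp5, an acid phosphatase of osteoclasts, went opposite ways in the picked cells against other stroma: 2.03 on the log2 scale in cKO and -0.83 in WT. Its levels were 27.8 CPM against 6.03 CPM in cKO and 3.4 CPM against 6.83 CPM in WT. A single cKO member held 97 of the 322 member UMIs, and a single WT cell held 133 of the 312 UMIs of other stroma. Meg3, an imprinted long non-coding RNA, had -0.73 in cKO and 1.10 in WT, with 14.3 CPM against 24.4 CPM in cKO and 21.9 CPM against 9.7 CPM in WT. One WT member held 89 of 283 UMIs. Neither difference between the libraries was tested.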

How the results depend on the processing

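No paired analysis was possible because each genotype is 1 library. For the shares, gene counts and medians of 4 lists (adipogenic, lipid, CXCL12-abundant stroma, osteoblast), 213 planned recalculations stayed within their limits, 46 moved and 1 reversed, and of those added after seeing the data 51 stayed and 3 moved. For single genes and 7 other lists, 2520 planned ones stayed, 739 moved and 9 reversed, and 610, 72 and 2 of the added ones. The cause of each change was not tested, beyond what the setting itself changes.

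The share of deep non-cycling stroma was 32.3% in cKO and 35.1% in WT at a sum of at least 2, 15.9% and 12.4% at 5, 18.7% and 17.6% with Hp, Pparg and Lpl, 4.75% and 4.15% with Cxcl14 alone, 20.5% and 18.5% without Lpl (added), and 26% in WT with no Ibsp limit. Thinned counts gave 128 genes higher and 95 lower in cKO and 129 and 91 by ratio of ratios, with an adipogenic median of 0.39 in cKO. No filter gave 401 and 415 genes between genotypes, 238 and 241 against other stroma and 450 and 398 by ratio of ratios, with medians of 0.39 (adipogenic, cKO) and -0.14 (osteoblast, cKO over WT). A filter of 50 CPM gave 15 and 13 between genotypes and 53 and 20 against other stroma. A prior of 5 CPM gave 31 lower in cKO and 27 and 11 by ratio of ratios. A sum of at least 5 gave 86 lower in cKO.

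With Cxcl14 alone, 275 genes were higher and 385 lower in cKO, and medians were 0.26 (adipogenic, cKO), 0.04 (lipid, cKO), -0.16 (CXCL12-abundant stroma, cKO over WT), and for osteoblast genes -0.25 (cKO over WT) and -0.33 (against other stroma, cKO). That setting reversed Galnt13 between genotypes (-0.17), and against other stroma Pparg (-0.19), Ebf2 (-0.28) and Col2a1 (-0.46) in WT and Mgp (-0.06) and Pde3a (-0.02) in cKO. It took the macrophage-marker median to -0.15 in cKO and -0.18 in WT, and leaving out Lpl (added) to -0.06 and -0.26. The progenitor median was -0.02 in WT without a filter. With the macrophage limit at 3 (added), the osteoblast median between genotypes was -0.12.

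Against only the cells with Ibsp and the sum both low, the osteoblast median was 0.12 in cKO and -0.19 in WT, and the CXCL12-abundant stroma median 0.43 in WT. Against only the Ibsp cells, 444 genes were higher and 193 lower, and medians were 0.24 (lipid, WT), 0.72 and 0.65 (CXCL12-abundant stroma, cKO and WT), and -1.24 and -1.14 (osteoblast, cKO and WT).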
